A study of Mus musculus with 16 samples.

Results

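The clustered protocadherins are 3 neighbouring gene clusters on mouse chromosome 18, named alpha, beta and gamma. They were read from 16 Clariom S arrays (1-colour Affymetrix arrays of mouse messenger RNA) by matching gene symbols, a rule that reads no measured value. The symbols matched 20 of 19572 named array features, and all 20 were beta genes, Pcdhb1 to Pcdhb20, with 1 feature each. No named feature carried an alpha or gamma symbol, of which the RefSeq gene table lists 14 and 22, and none carried Pcdhb21 or Pcdhb22 of the 22 beta genes listed. The alpha and gamma clusters, with the C-type genes Pcdhac1, Pcdhac2, Pcdhgc3, Pcdhgc4 and Pcdhgc5, were therefore not analysed here. Another 2634 transcript clusters on the arrays were unnamed here.

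The RNA came from sorted cells of the olfactory mucosa of C57BL/6 mice of both sexes, 7 to 12 weeks old, all with the S100a5-tauGFP allele. The allele marks olfactory sensory neurons (OSNs) that express S100a5, a gene switched on by activity, with green fluorescent protein. Each mouse spent 40 h alone in a chamber fed with clean air at 3.1 L per min. From 26 h on it received 10 s pulses every 20 min, of a mixture of undecanal and bourgeonal (odor) or of filtered air (vehicle). The 24 mice formed 8 pools of 3, and each pool gave 2 fractions, titled GFP− and GFP+. The 2 treatments thus gave 4 groups of 4 arrays. The cell type characteristic gives the opposite GFP status to the title on all 16 arrays, and the groups and directions here follow the titles.

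Clustered protocadherins are cell surface adhesion proteins through which the branches of a neuron tell their own membrane from that of other neurons. A neuron expresses a varying subset of them, by a choice among promoters that depends on the DNA-binding factor CTCF, on cohesin and on DNA methylation. Each beta gene is a single coding exon with its own transmembrane and short cytoplasmic part, whereas alpha and gamma transcripts share constant exons within their cluster. In the mouse, these genes are needed for OSN axons to spread and form glomeruli in the olfactory bulb. Genes of the beta cluster resemble each other in sequence, and whether each feature reads its own gene alone was not tested.

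The reporter's own gene went against the titles. S100a5 had log2 signals of 17.08, 16.46, 16.56 and 16.51 in the odor titled GFP− arrays, against 14.65, 15.75, 15.48 and 15.48 in the odor titled GFP+ arrays. It had 16.44, 16.30, 16.46 and 16.29 in the vehicle titled GFP− arrays, against 15.51, 15.44, 15.33 and 15.22 in the vehicle titled GFP+ arrays. The titled GFP− arrays were higher in every pool. Omp, the marker of mature OSNs, was high on all arrays, at group means of 18.54 ± 0.06 in odor titled GFP−, 18.43 ± 0.10 in odor titled GFP+, 18.60 ± 0.06 in vehicle titled GFP− and 18.48 ± 0.06 for vehicle titled GFP+ (log2 signal, SD, n = 4 each). All 11 listed neutrophil markers and all 11 measured markers of other leukocytes were below background (the 95th percentile of each array's negative controls) on every titled GFP− array. Array medians over all named features were 6.77 to 6.84 in the odor and 6.77 to 6.84 in the vehicle titled GFP− arrays, against 7.10 to 7.12 in the odor and 7.15 to 7.32 in the vehicle titled GFP+ arrays.

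Most beta genes gave signals in the range of the arrays' negative controls. Background was set per array at the 95th percentile of the negative controls, which lay between 9.14 and 10.9 log2 units. It averaged 9.86 in odor titled GFP−, 10.44 in odor titled GFP+, 9.60 in vehicle titled GFP− and 9.46 in vehicle titled GFP+ arrays. A count of arrays above background thus depends on the group's background as well as on the gene's signal. By this measure Pcdhb1 was above background on all 16 arrays. Another 6 genes were above it on some arrays: Pcdhb14 and Pcdhb17 on 11, Pcdhb20 on 9, Pcdhb4 on 6, Pcdhb16 on 4 and Pcdhb9 on 2. The other 13 were above it on none. A lower bar, the highest of 23 control sets graded by GC content, put 6 genes above background on all arrays, 8 on some and 6 on none. The median of the negative controls put 15 on all and 5 on some. A fold change is given below only for Pcdhb1 and Pcdhb14, and all other values are differences of array signal.

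Pcdhb1 lay far above the other beta genes in signal, of which the highest, Pcdhb14, reached at most 11.40. The features with the highest mean signals were Pcdhb1, at 16.23 ± 0.10 in odor titled GFP−, 15.92 ± 0.20 in odor titled GFP+, 16.27 ± 0.06 in vehicle titled GFP− and 16 ± 0.15 for vehicle titled GFP+ (log2 signal, SD, n = 4 each), then Pcdhb14 and Pcdhb17. Pcdhb17 had 10.31 ± 0.05 in odor titled GFP−, against 9.95 ± 0.33 in odor titled GFP+, and 10.31 ± 0.07 in vehicle titled GFP−, against 9.99 ± 0.23 in vehicle titled GFP+. The lowest were Pcdhb3, between 5.40 and 6.57 over the 16 arrays, and Pcdhb10, between 4.32 and 5.90. Signals of different features rest on different probes, so this order is not one of transcript abundance. The median signal of the 20 genes on an array averaged 8.01 in odor titled GFP−, against 7.60 in odor titled GFP+, and 8.04 in vehicle titled GFP−, against 7.55 in vehicle titled GFP+. Both titled GFP− groups were above the titled GFP+ groups of the same treatment. It ran from 7.86 to 8.26 in odor titled GFP− and from 7.43 to 7.75 in odor titled GFP+, with no overlap. It ran from 7.82 to 8.23 in vehicle titled GFP− and from 7.31 to 7.88 in vehicle titled GFP+, where the ranges overlapped.

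**Figure D1:**
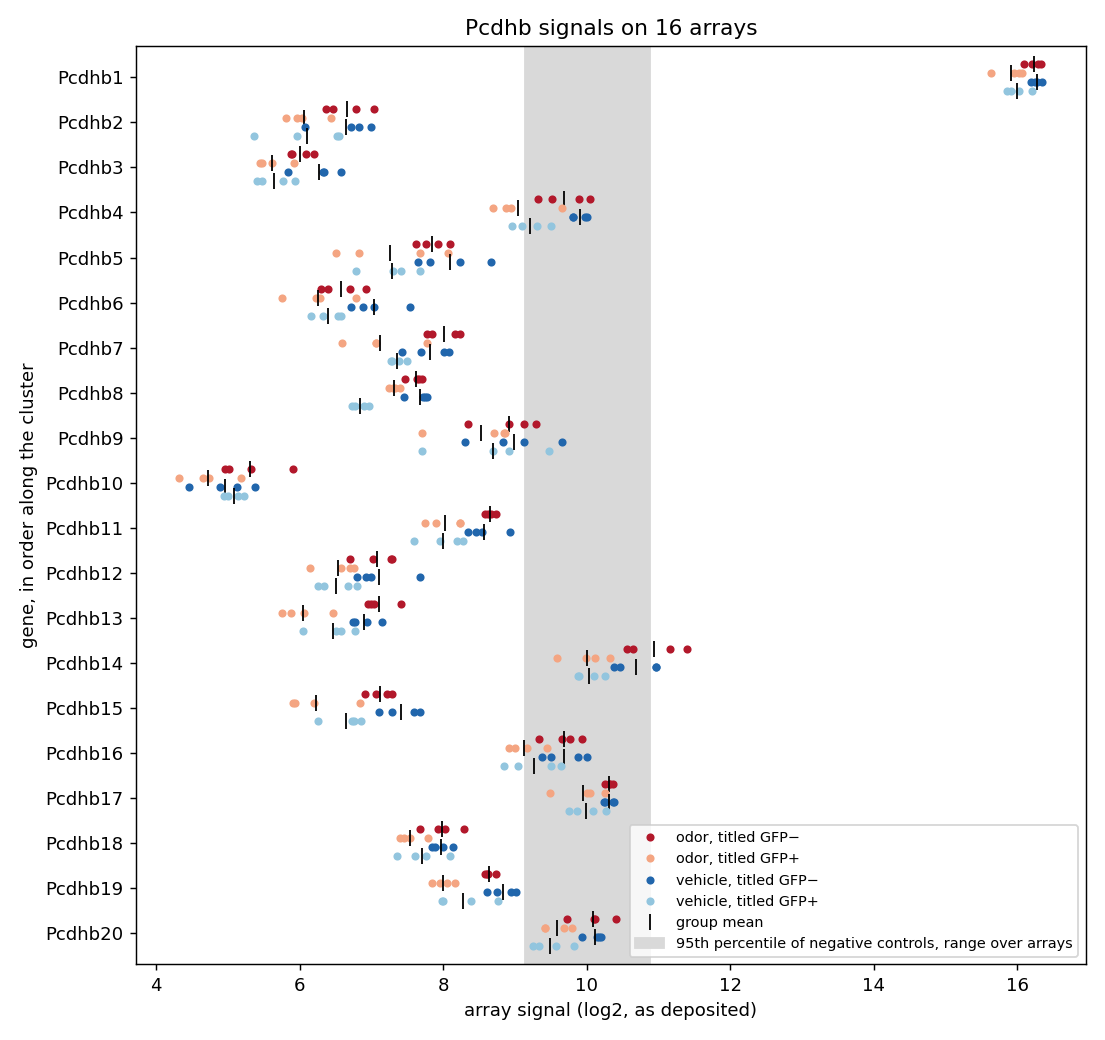
Log2 array signal of the 20 beta genes (x axis) by gene in cluster order (y axis). Points are arrays, 4 per group, vertical ticks are group means, and the grey band spans the 95th percentile of the negative controls over the arrays, 9.14 to 10.9. Pcdhb1 lies to the right of the band on every array and 13 genes are above background on no array.

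The first comparison asks whether cells sorted by the reporter differ in beta protocadherin RNA. Averaged over the odor and vehicle pools, 18 of the 20 beta genes rose in the titled GFP− fraction and 0 fell, where 35.6% of all named features passed the same test, 21.9% higher and 13.7% lower (limma, adjusted p under 0.05 over all features). The median of the beta genes' differences, taken as titled GFP− less titled GFP+, was 0.57 log2 units, with a range of 0.23 to 0.83, against 0.15 over all features. At an unadjusted p under 0.05 the same number of beta genes passed, 18, against 46.4% of all features. The neighbours Pcdhb13, Pcdhb14 and Pcdhb15 had the largest differences of array signal, though Pcdhb13 and Pcdhb15 were above background on no array. In these bulk fractions, fewer cells of a type and less RNA per cell cannot be told apart. The p-values rest on the spread between arrays within a group, each from a different pool of mice. Except where the pool is named as a block, the fit did not pair the fractions of a pool. Those p-values therefore do not use the spread of the differences within pools.

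Pcdhb15 had signals of 7.06, 7.21, 7.29 and 6.91 in odor titled GFP−, against 6.20, 5.94, 5.91 and 6.84 in odor titled GFP+. It had 7.67, 7.11, 7.59 and 7.28 in vehicle titled GFP−, against 6.75, 6.25, 6.73 and 6.85 in vehicle titled GFP+. The fractions did not overlap in either treatment, though the odor titled GFP+ array of replicate 4 came within 0.07 of its titled GFP− partner. The average difference was 0.83 ± 0.14 log2 units (SE, limma adjusted p = 3.0e-04).

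Pcdhb14 had signals of 11.16, 10.56, 11.40 and 10.65 in odor titled GFP−, against 9.59, 10.11, 10.32 and 9.99 in odor titled GFP+. It had 10.96, 10.38, 10.96 and 10.47 in vehicle titled GFP−, against 9.88, 9.89, 10.26 and 10.10 in vehicle titled GFP+. All 8 titled GFP− arrays were above all titled GFP+ arrays of the same treatment, and replicates 1 and 3 were the highest of both titled GFP− groups. The average difference was 0.80 ± 0.15 (SE, limma adjusted p = 6.0e-04). Pcdhb14 was above background on all titled GFP− arrays, on no odor titled GFP+ array and on 3 of 4 vehicle titled GFP+ arrays. Its mean signal was 10.0 in odor and 10.03 in vehicle titled GFP+ arrays, where background averaged 10.44 and 9.46. The fold was thus a bound with odor, at least 1.41, and a measured value with vehicle, 1.58, so they are not compared. A bound of this kind sets the brighter group's mean against the lowest signal of any named feature above background on each dim array. The gene's own dim signal is used where that is higher.

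Pcdhb13 had signals of 7.03, 6.95, 6.99 and 7.41 in odor titled GFP−, against 5.75, 5.88, 6.06 and 6.46 in odor titled GFP+. It had 6.74, 6.94, 6.77 and 7.15 in vehicle titled GFP−, against 6.04, 6.58, 6.50 and 6.77 in vehicle titled GFP+. The odor groups were apart by a wide gap, while the vehicle groups overlapped, since vehicle titled GFP+ replicate 4 reached the lower titled GFP− arrays. The average difference was 0.74 ± 0.13 (SE, limma adjusted p = 3.3e-04).

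The other named genes of this comparison were Pcdhb5, Pcdhb4 and Pcdhb7. Pcdhb5 rose by 0.69 ± 0.22 on average (SE, limma adjusted p = 0.021), with pool differences that ranged from −0.14 in odor pool 4 to 1.89 in vehicle pool 3. Pcdhb4 rose by 0.67 ± 0.14 (adjusted p = 0.0019) and was lower in the titled GFP− fraction only in odor pool 4, by −0.33. Pcdhb7 rose by 0.67 ± 0.15 (adjusted p = 0.0028) and was higher in all 8 pools. Pcdhb8 had the lowest adjusted p among the 20, 4.0e-05, with a difference of 0.57 ± 0.08 (SE).

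Pcdhb1, the gene measured above background on every array, had signals of 16.10, 16.21, 16.33 and 16.29 in odor titled GFP−, against 15.64, 16.07, 15.96 and 16.02 in odor titled GFP+. It had 16.25, 16.19, 16.35 and 16.28 in vehicle titled GFP−, against 15.86, 15.92, 16.03 and 16.20 in vehicle titled GFP+. Its fractions were apart in odor pools and overlapped by a small amount in vehicle pools. The average difference was 0.29 ± 0.09 (SE, limma adjusted p = 0.017), or 1.22-fold.

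The 2 genes that did not pass were Pcdhb9, at 0.33 ± 0.26 (SE, limma adjusted p = 0.32), and Pcdhb10, at 0.23 ± 0.16 (adjusted p = 0.28). Pcdhb9 was higher in the titled GFP− fraction in all 8 pools and its pools lay far apart in level. With the pool of mice as a block it passed, at an adjusted p of 0.0197, and the count became 19. The share of all features called under that block is not given here. Pcdhb10 was higher in 5 of 8 pools.

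The direction was shared by most genes within single pools. Of 160 values, 20 genes in 8 pools, 153 were higher in titled GFP− and 7 lower. The number of genes higher was 20, 19, 20 and 16 in odor pools 1 to 4 and 19, 19, 20 and 20 in vehicle pools 1 to 4, while 57.9% to 63.2% of all features were higher in a pool. Median differences over the genes were 0.66, 0.51, 0.82 and 0.35 in odor pools 1 to 4, against 0.61, 0.48, 0.49 and 0.38 in vehicle pools 1 to 4, while the median over all features lay between 0.08 and 0.16. In all 8 pools 16 of the 20 genes were higher, against 15.9% of all features, and Pcdhb4 and Pcdhb6 were higher in 7 pools.

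**Figure D2:**
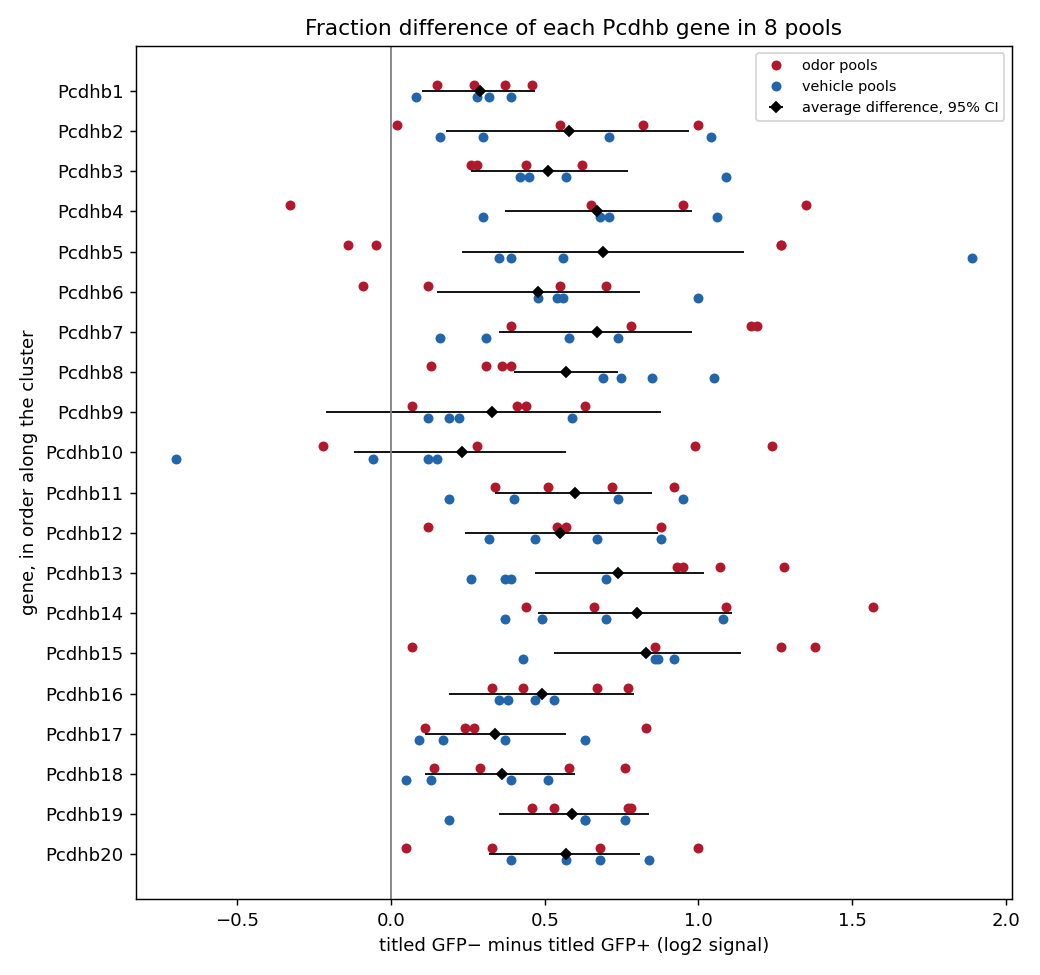
Difference in log2 signal, titled GFP− less titled GFP+ (x axis) for each beta gene in cluster order (y axis). Red points are the 4 odor pools and blue points the 4 vehicle pools, and black diamonds are limma's average difference with its 95% confidence interval. Of 160 points 153 lie right of 0, and the intervals of Pcdhb9 and Pcdhb10 include 0.

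These calls depended on how the arrays were scaled. With each array centred on the median of its 1084 olfactory receptor features, 0 of the 20 genes passed, where 2.46% of all features were called higher, 15 kept a positive sign and their median difference was 0.20, against −0.22 for all features. Centred on the negative controls, 13 passed, where 11.2% of all features were called higher. Centred on the median of all named features, all 20 passed at a median of 0.92, where 73.5% of all features were called higher, and the median of all features moved to 0.50. Centring shifts all features of an array by the same amount.

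Leaving out 1 pool at a time left 15 to 17 genes called, and 12 were called in all 8 such fits. The share of all features called in these fits is not given here. Pcdhb5 lost its call without odor replicate 1, odor replicate 3 or vehicle replicate 3 (limma adjusted p of 0.0538, 0.0779 and 0.0874). Pcdhb2 lost it without odor replicate 1, odor replicate 3 or vehicle replicate 2 (0.0679, 0.0751 and 0.0813). Pcdhb18 lost it without odor replicate 3 or 4 or vehicle replicate 1 or 3 (0.0831, 0.0711, 0.0764 and 0.064). Pcdhb17 lost it without odor replicate 2 or vehicle replicate 1 or 2 (0.0587, 0.086 and 0.0586), Pcdhb6 without odor replicate 2 or vehicle replicate 4 (0.0734 and 0.0537), and Pcdhb1 without vehicle replicate 1 (0.0546). The differences of these 6 genes stayed positive in each of these fits.

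Within odor pools, 8 of the 20 genes rose in titled GFP− and 0 fell, where 22.2% of all features passed and 12.2% were higher. The 8 were Pcdhb4, Pcdhb7, Pcdhb11, Pcdhb13, Pcdhb14, Pcdhb15, Pcdhb19 and Pcdhb20. At an unadjusted p under 0.05 17 genes passed, against 35.4% of all features. All 20 differences were positive, with a median of 0.56 and a range of 0.30 to 1.06, against a median of 0.14 over all features. The largest was that of Pcdhb13, at 1.06 ± 0.18 (SE, limma adjusted p = 5.6e-04), followed by Pcdhb14 at 0.94 ± 0.21 (0.0044) and Pcdhb15 at 0.89 ± 0.20 (0.0048). The 2 groups of arrays did not overlap for 8 genes, all higher in titled GFP−, against 14.2% of all features.

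Pcdhb7 had signals of 7.78, 8.17, 8.23 and 7.84 in odor titled GFP−, against 6.59, 7.78, 7.06 and 7.06 in odor titled GFP+. The groups met without overlap, since the highest titled GFP+ array fell just short of the lowest titled GFP− array. The difference was 0.88 ± 0.21 (SE, limma adjusted p = 0.0070). Pcdhb19 had 8.74, 8.61, 8.62 and 8.58 in odor titled GFP−, against 7.96, 7.84, 8.16 and 8.05 in odor titled GFP+, and its difference was 0.63 ± 0.16 (adjusted p = 0.011). Pcdhb4 had 10.04, 9.51, 9.89 and 9.32 in odor titled GFP−, against 8.70, 8.87, 8.94 and 9.65 in odor titled GFP+, where replicate 4 lay among the titled GFP− arrays. Its difference of 0.65 ± 0.20 passed (adjusted p = 0.030) but not with the pool as a block (adjusted p = 0.0696). Under that block 11 genes passed, with Pcdhb2, Pcdhb12, Pcdhb16 and Pcdhb18 added. The share of all features called under it is not given here.

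The count in odor pools rested on few arrays. It was 5 without odor replicate 1, 5 without odor replicate 2 and 4 without odor replicate 3. The share of all features called in these fits is not given here. Pcdhb13, Pcdhb14 and Pcdhb15 passed in every fit that left out 1 pool. Pcdhb7 lost its call without odor replicate 3 (limma adjusted p = 0.0518), Pcdhb19 without odor replicate 1 or 2 (0.0637 and 0.057), and Pcdhb4 without odor replicate 1, 2 or 3 (0.221, 0.0814 and 0.143). Pcdhb11 lost it without odor replicate 2 or 3 (0.067 and 0.0893). Pcdhb20 lost it without odor replicate 1, 3 or 4 or vehicle replicate 2 (0.139, 0.204, 0.0519 and 0.051). In odor pools 0 genes passed with receptor centring, where 1.74% of all features were called higher. With quantile normalization 13 passed, where 15.0% were, and with negative-control centring 13, where 17.0% were.

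Within vehicle pools 8 of the 20 genes rose in titled GFP− and 0 fell, where 16.9% of all features passed and 7.05% were higher. The 8 were Pcdhb3, Pcdhb4, Pcdhb8, Pcdhb11, Pcdhb14, Pcdhb15, Pcdhb19 and Pcdhb20. At an unadjusted p under 0.05 14 genes passed, against 30.6% of all features. The differences had a median of 0.56 and ranged from −0.12, for Pcdhb10, to 0.84, against a median of 0.13 over all features. For 8 genes the 2 groups of arrays did not overlap, all higher in titled GFP−, against 12.3% of all features.

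Pcdhb8 had signals of 7.78, 7.75, 7.46 and 7.72 in vehicle titled GFP−, against 6.73, 6.90, 6.77 and 6.97 in vehicle titled GFP+. It had 7.63, 7.71, 7.47 and 7.66 in odor titled GFP−, against 7.24, 7.40, 7.33 and 7.30 in odor titled GFP+. The titled GFP− arrays of both treatments lay in one range, and the titled GFP+ arrays were lower with vehicle than with odor, without overlap. The vehicle difference was 0.84 ± 0.11 (SE, limma adjusted p = 4.8e-05), and it passed without any 1 of the 8 pools.

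Pcdhb3 had signals of 6.57, 5.84, 6.33 and 6.34 in vehicle titled GFP−, against 5.48, 5.40, 5.76 and 5.93 in vehicle titled GFP+, a difference of 0.63 ± 0.17 (SE, limma adjusted p = 0.017). Its groups overlapped through vehicle titled GFP− replicate 2. Pcdhb20 had 9.93, 10.14, 10.17 and 10.20 in vehicle titled GFP−, against 9.25, 9.57, 9.33 and 9.82 in vehicle titled GFP+, with no overlap. Its difference was 0.62 ± 0.16 (adjusted p = 0.014), and it was above background on all 4 vehicle titled GFP− arrays and on 2 of 4 vehicle titled GFP+ arrays. Pcdhb4 had 10.01, 9.81, 9.98 and 9.81 in vehicle titled GFP−, against 8.96, 9.10, 9.30 and 9.50 in vehicle titled GFP+, also with no overlap. It was above background on all 4 vehicle titled GFP− arrays and on 1 of 4 vehicle titled GFP+ arrays. Its difference of 0.69 ± 0.20 passed (adjusted p = 0.028) but not with the pool as a block (adjusted p = 0.0712). Pcdhb15 differed by 0.77 ± 0.20 (adjusted p = 0.015) and Pcdhb14 by 0.66 ± 0.21 (adjusted p = 0.042). Under the pool block 11 genes passed, with Pcdhb6, Pcdhb12, Pcdhb13 and Pcdhb16 added. The share of all features called under it is not given here.

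The vehicle count also rested on few arrays, at 1 gene without vehicle replicate 1, 3 without replicate 2 and 2 without replicate 3. The share of all features called in these fits is not given here. Without vehicle replicate 1 the gene left was Pcdhb8. The adjusted p of Pcdhb14 was 0.229, 0.0749, 0.116 and 0.0667 without vehicle replicates 1 to 4, and 0.0526 without odor replicate 4. Pcdhb15 lost its call without vehicle replicate 1 or 3 (limma adjusted p of 0.0764 and 0.0727), as did Pcdhb3 (0.147 and 0.0608). Without vehicle replicates 1, 2 and 3, the values were 0.171, 0.0932 and 0.0991 for Pcdhb4, 0.054, 0.0513 and 0.0963 for Pcdhb20, and 0.13, 0.0722 and 0.106 for Pcdhb19. Pcdhb11 lost its call without vehicle replicate 1, 2 or 4 (0.066, 0.143 and 0.0832). In vehicle pools 0 genes passed with receptor centring, where 1.75% of all features were called higher. With negative-control centring 1 passed, where 2.11% were, and with quantile normalization 15, where 13.5% were.

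The odor and vehicle pools share no animals. In both sets 6 genes passed as higher, Pcdhb4, Pcdhb11, Pcdhb14, Pcdhb15, Pcdhb19 and Pcdhb20, where 4.24% of all features did. Another 8 passed as higher in the average but in neither set alone, where 8.01% of all features did. The sign was the same in both sets for 19 of 20 genes (95%), against 80.8% of all features. Across the 20 genes the odor and vehicle differences correlated at r = 0.14 and rho = 0.16, as a description of genes measured on the same arrays. Their differences ran from 0.30 to 1.06 and from −0.12 to 0.84, with a median SE of 0.2 in each set. Across all features r was 0.96 and rho 0.70, but those differences spanned far more, down to −11.09 for Lcn2 in odor pools. Correlations over such unlike ranges are not compared.

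Markers of several other cell types moved with the fraction. The counts are from the average difference, in which 21.9% of all features were called higher and 13.7% lower. Neutrophil genes were lower in titled GFP− for 11 of 11 markers on average, at a median of −8.78 log2 units. The log2 of their summed level was 8.97 to 9.98 in odor titled GFP−, against 18.42 to 19.47 in odor titled GFP+, and 8.96 to 9.37 in vehicle titled GFP−, against 18.47 to 19.74 in vehicle titled GFP+. Markers of other leukocytes were lower for 11 of 11, at a median of −5.27. Their summed level was 8.95 to 10.14 in odor titled GFP−, against 14.78 to 16.73 in odor titled GFP+, and 9.24 to 9.53 in vehicle titled GFP−, against 15.32 to 17.11 in vehicle titled GFP+. Cycling cell genes fell for 6 of 6, microvillar cell genes for 8 of 8 and sustentacular cell genes for 7 of 9. Ensheathing glia genes fell for 2 of 6, at a median of −0.07, and endothelial and mesenchymal genes for 1 of 7, at a median of 0.19. In each of the 4 groups, 5 of those 6 and all 7 of the latter were below background on every array. Of 6 basal progenitor genes 3 fell and 1 rose. On all vehicle titled GFP+ arrays 5 of them were below background, and on all arrays of each other group 6 were. Immature OSN genes fell for 7 of 11, at a median of −0.89, and mature OSN genes rose for 8 of 15 with 0 lower, at a median of 0.20 and a highest value of 0.64. Of the activity-dependent OSN genes, S100a5 among them, 5 of 6 rose. The part of these differences in the beta protocadherin values was not tested.

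**Figure D3:**
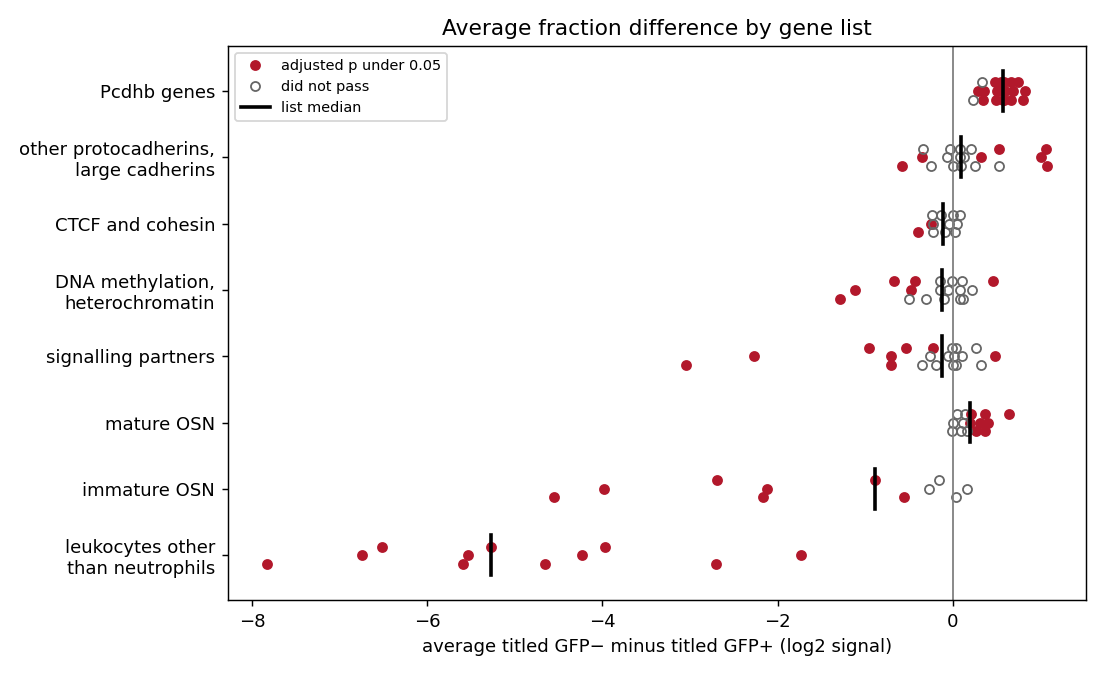
Average difference in log2 signal, titled GFP− less titled GFP+ (x axis) for the beta genes and for other gene lists (y axis). Each point is a gene, filled where the limma adjusted p was under 0.05, and black bars are list medians. The beta genes lie between 0.23 and 0.83, the mature OSN genes have a median of 0.20, and the leukocyte markers a median of −5.27.

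Gene lists of chromatin architecture and of DNA methylation and heterochromatin were read from the same average fraction difference. In it 21.9% of all features were called higher and 13.7% lower. Whether each listed gene acts on protocadherin promoters was not tested. No list's count was tested against these shares. CTCF, cohesin and looping factors had 12 of 13 listed genes measured, of which 0 rose and 2 fell, with a median of −0.11. Those were the cohesin subunit gene Stag1, at −0.40 ± 0.14 (SE, limma adjusted p = 0.034), and the gene of the DNA-binding factor Yy1, at −0.25 ± 0.09 (0.048). Of 18 measured genes of DNA methylation and heterochromatin, 1 rose and 5 fell, with a median of −0.13. Below background on all arrays of the group were 8 in odor titled GFP− and 11 in odor titled GFP+. In vehicle titled GFP− 8 were, and in vehicle titled GFP+ 5. Smchd1, whose product silences clustered protocadherin genes in the mouse, fell, at −1.12 ± 0.13 (SE, adjusted p = 3.9e-06). Uhrf1, which directs maintenance methylation of DNA, was at −1.29 ± 0.22 (adjusted p = 2.7e-04), the heterochromatin protein gene Cbx5 at −0.67 ± 0.18 (0.0090) and the histone methyltransferase gene Ehmt1 at −0.48 ± 0.17 (0.044). The one that rose, the histone methyltransferase gene Suv39h2, had a difference of 0.46 ± 0.17 (adjusted p = 0.0496). Dnmt3b, which methylates clustered protocadherin promoters in the mouse embryo, had an average difference of 0.08 ± 0.14 (adjusted p = 0.66). It rose in odor pools, at 0.74 ± 0.20 (adjusted p = 0.014), and was at −0.58 ± 0.20 in vehicle pools, which did not pass (adjusted p = 0.059). These lists share the fractions with the leukocyte and cycling cell markers above, and the part of those cells in their values was not tested.

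In the same average difference, 21.9% of all features were called higher and 13.7% lower, and the counts of the next lists were not tested against these shares. The next lists also share the fractions with the leukocyte and cycling cell markers. The part of those cells in their values was not tested. Of 20 measured signalling partners of the clustered protocadherins, 1 rose and 7 fell, with a median of −0.13. On all odor titled GFP− arrays 9 of them were below background, and on all arrays of each other group 8 were. Wasf1, a subunit of an actin-regulating complex, rose by 0.48 ± 0.17 (SE, limma adjusted p = 0.040). Lower in titled GFP− were the protein kinase C gene Prkcd, at −3.05 ± 0.21 (9.0e-09), Marcks, a substrate of protein kinase C, at −2.27 ± 0.18 (6.3e-08), the kinase gene Ptk2b, at −0.96 ± 0.17 (3.0e-04), and the small GTPase gene Rac1, at −0.71 ± 0.11 (1.0e-04). Of 19 measured protocadherins outside the clusters and large cadherins, 5 rose and 2 fell, with a median of 0.09. Below background on all arrays of the group were 12 in odor titled GFP− and 12 in odor titled GFP+. In vehicle titled GFP− 10 were, and in vehicle titled GFP+ 11. Pcdh8 rose by 1.07 ± 0.21 (8.0e-04), Pcdh10 by 1.06 ± 0.22 (0.0014), Pcdh7 by 1.01 ± 0.18 (3.1e-04) and Pcdh9 by 0.53 ± 0.20 (0.047), while Pcdh11x fell, at −0.58 ± 0.19 (0.023), as did Celsr1, at −0.35 ± 0.12 (0.034).

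The second comparison asks whether the odor changed beta protocadherin RNA within a fraction. In titled GFP− arrays 0 of the 20 genes passed limma's test at an adjusted p under 0.05, where 0.0% of all features did, and 0 had an unadjusted p under 0.05, against 805 of all features (4.11%). The differences of odor minus vehicle had a median of −0.02 and ranged from −0.46 to 0.34, and their 95% confidence intervals together spanned −0.92 to 0.83. The 3 genes with the smallest p were Pcdhb6, at −0.46 ± 0.22 (SE), Pcdhb3, at −0.26 ± 0.17, and Pcdhb10, at 0.34 ± 0.23, each with an adjusted p of 0.999.

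In titled GFP+ arrays 0 of 20 passed, where 0.0% of all features did, and 2 had an unadjusted p under 0.05, against 2016 of all features (10.3%). The median was −0.11, the range −0.43 to 0.48 and the span of the intervals −0.94 to 0.72. Pcdhb8, whose values are given above, was higher with odor by 0.48 ± 0.11 (SE, limma unadjusted p = 6.8e-04, adjusted p = 0.30), with no overlap between the groups. Pcdhb13 had a difference of −0.43 ± 0.18 (unadjusted p = 0.031, adjusted p = 0.44) and Pcdhb15 one of −0.42 ± 0.20 (adjusted p = 0.50). The scaling decided the count: with arrays centred on their negative controls 11 of the 20 genes passed as lower with odor. Of all features 45.4% passed, a share not split by direction here. The median was −0.64 for the beta genes and −0.56 for all features. Under that scaling the difference of Pcdhb8 was −0.06. No gene of the 4 chromatin, DNA methylation, signalling and cadherin lists passed either odor comparison. The smallest p among them was that of Pcdh10, higher with odor by 1.74 ± 0.31 in titled GFP− (adjusted p = 0.77) and by 1.69 ± 0.31 in titled GFP+ (adjusted p = 0.30).

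**Figure D4:**
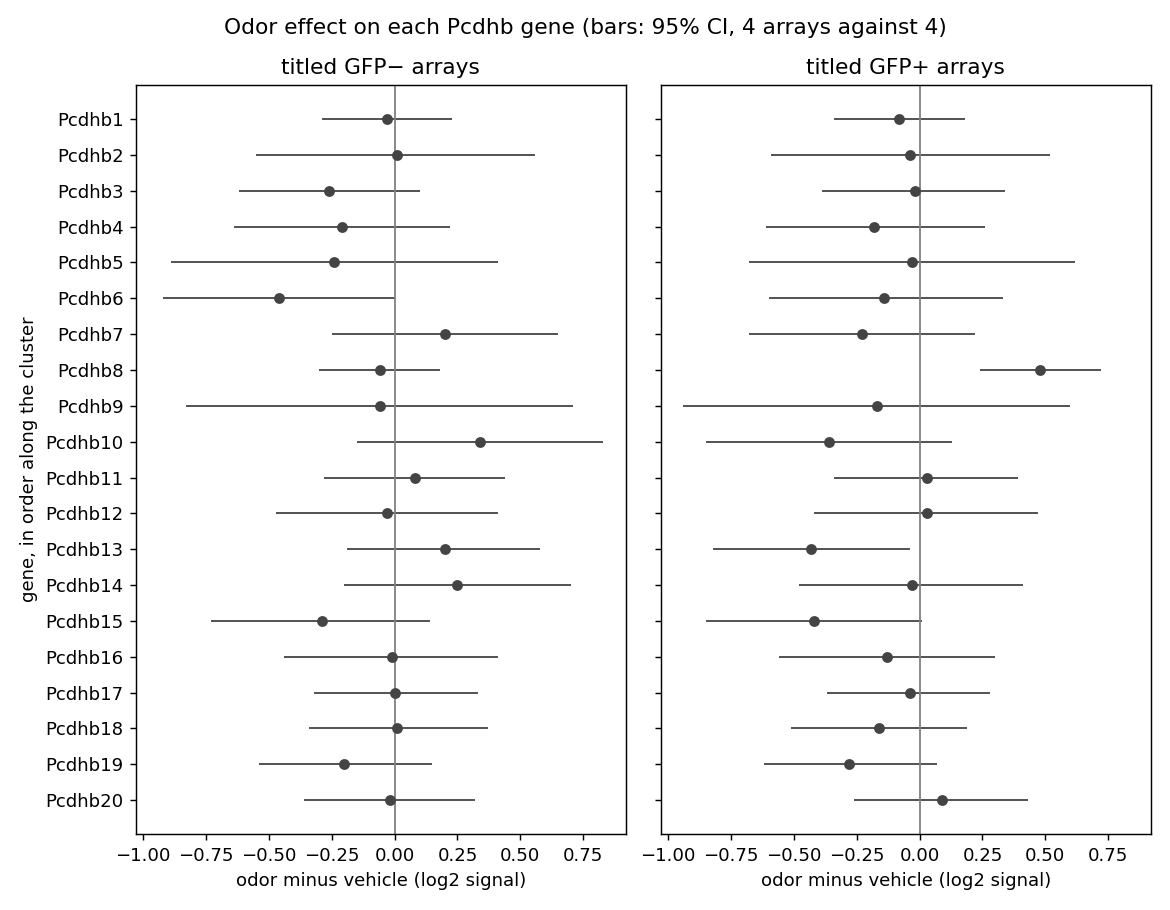
Difference of odor minus vehicle in log2 signal (x axis) for each beta gene (y axis), in titled GFP− arrays (left) and titled GFP+ arrays (right). Points are limma estimates from 4 arrays against 4, with 95% confidence intervals. The estimates lie between −0.46 and 0.34 on the left and between −0.43 and 0.48 on the right, and none passed after adjustment.

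The last comparison, the interaction, sets the fraction difference in odor pools against that in vehicle pools. By limma 0 of the 20 genes passed, where 0.0% of all features did, and 3 had an unadjusted p under 0.05, against 739 of all features (3.78%). The differences had a median of 0.05, and their 95% intervals together spanned −1.13 to 1.39. Pcdhb8 had the smallest p, with a fraction difference smaller in odor pools, by an interaction of −0.54 ± 0.16 (SE, unadjusted p = 0.0041). Pcdhb13 had a fraction difference larger in odor pools by 0.63 ± 0.26 (unadjusted p = 0.028) and Pcdhb10 by 0.69 ± 0.33 (unadjusted p = 0.049), and all 3 had an adjusted p of 1. No gene of the 4 chromatin, DNA methylation, signalling and cadherin lists passed either, and the smallest p among them was that of Dnmt3b, at 1.32 ± 0.28 (SE, unadjusted p = 2.6e-04, adjusted p = 1). Pcdhb10 had signals of 5.90, 5.32, 5.01 and 4.96 in odor titled GFP−, against 4.65, 4.32, 4.73 and 5.18 in odor titled GFP+. It had 4.89, 4.45, 5.12 and 5.38 in vehicle titled GFP−, against 4.95, 5.14, 5.0 and 5.23 in vehicle titled GFP+. The fractions overlapped in both treatments, and these signals lay below background on all 16 arrays.

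With the group means removed, the beta genes varied together over the 16 arrays. The mean correlation over their 190 pairs was 0.25, and 160 pairs were positive, while the mean over all pairs of features was 0.003. Pairs of neighbours in the cluster averaged 0.25 (19 pairs), as did all other pairs (171). The highest were Pcdhb9 with Pcdhb16 at 0.86 and with Pcdhb1 at 0.82, and the lowest Pcdhb7 with Pcdhb17 at −0.48. These are descriptions of genes that share arrays and pools of mice, and they hold array and pool effects.

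Pcdhb9 had the widest range of pool levels among the 20 genes. Its signals were 8.35, 8.91, 9.12 and 9.29 in odor titled GFP−, against 7.71, 8.84, 8.71 and 8.86 in odor titled GFP+. They were 8.30, 8.83, 9.12 and 9.65 in vehicle titled GFP−, against 7.71, 8.70, 8.91 and 9.47 in vehicle titled GFP+. Replicate 1 was the lowest array of each group. Averaged over both fractions, the pools stood at 8.03, 8.88, 8.92 and 9.07 with odor and at 8.01, 8.76, 9.01 and 9.56 with vehicle, a range of 1.55 log2 units. For 3 of the 20 genes, Pcdhb7, Pcdhb9 and Pcdhb16, the same replicate number was lowest in all 4 groups, against 5.54% of all features, and it was replicate 1 each time. Of the 1085 such features overall 484 had replicate 1 as the lowest. This pattern was noticed in the data, and its cause was not tested.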

How the data were processed

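RNA abundance was measured on 16 Clariom S arrays of FACS-sorted olfactory mucosa cells. Per the labels' protocols, each array took 50 to 100 ng of RNA. The authors made the log2 signals with Affymetrix Expression Console before they were deposited, per the submitters' processing notes, and the log2 unit was read from their range of 1.77 to 19.3. How the background was corrected, arrays normalized and probes summarized is not given in the sources used here. The same holds for the genome build, and no coordinates are printed. Features were named from GEO's platform annotation, with RefSeq names of assembly GRCm38.p6. Sequences of the cluster are not reported here.

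Groups followed the sample titles, 4 arrays each. The gene family, though matched by symbol alone, and all gene lists were chosen for study with earlier results of these data known. A limma cell-means model (limma 3.58.1, R 4.3.3, statmod 1.5.0) was fitted to the deposited values of all 19572 features with 1 gene symbol, with no filter. The 6 comparisons used two-sided moderated tests with Benjamini-Hochberg adjustment over all features at 0.05. The steps were tested on simulated data. SE and 95% intervals are the model's, and SD is over the arrays of each group, whose number limits the precision.

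Text names went to C-type genes, the 3 highest and 2 lowest by mean signal, and up to 6 genes per direction and comparison past the threshold by size, or the 3 smallest p where fewer than 3 passed. Of each pathway list up to 4 per direction were named, or the 2 smallest p, and they are given for the average fraction difference. Pcdhb9 and Pcdhb8 were also described after their values were seen, as were genes that complete small counts. In the odor comparisons and the interaction, where no pathway gene passed, the smallest p over the pathway lists is given.

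Both fractions of a numbered pool came from the same mice (24 mice, 8 pools, 16 arrays). Their deviations from group means correlated at 0.0957 to 0.337, over 0.1 in 7 of 8 pools, against −0.191 to 0.0882 for other numbers. Odor and vehicle arrays of one number and fraction correlated at 0.147 to 0.547, over 0.1 in 8 of 8. The alternatives were renewed quantile normalization, centring on the median of all named features, of 1084 olfactory receptor features or of 5222 negative controls, a filter on dim features (over background on at least 4 arrays), a trended robust spread, pool or replicate number as a block, and leaving out each pool in turn.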

Additional observations from a re-analysis of the deposited data

Results flagged for a closer look

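Each of the 20 genes was screened in each of the 4 groups of 4 arrays for an array far from the other 3 (Dixon's test at its 95% critical value). Of 80 groups screened 2 stood out, where chance gives about 1 in 20, or 4. Pcdhb9 on odor titled GFP+ replicate 1 had a signal of 7.71, and the other 3 arrays lay between 8.71 and 8.86. Pcdhb13 on odor titled GFP− replicate 4 had a signal of 7.41, and the other 3 lay between 6.95 and 7.03.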

How the results depend on the processing

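The scaling of the arrays moved most counts, and the sources used here do not give the authors' normalization. In odor pools the number of beta genes called was 13 with quantile normalization, 19 with centring on the median of named features, 0 with receptor centring and 13 with negative-control centring. The median difference was 0.86 with median centring and 0.09 with receptor centring. In vehicle pools the numbers in the same order of settings were 15, 18, 0 and 1, and the medians 0.72, 0.97, 0.29 and 0.37. For the average difference, receptor centring gave 0 genes and a median of 0.20, quantile normalization a median of 0.74 and median centring one of 0.92. The median of all features in the average moved to 0.50 with median centring and to −0.22 with receptor centring, and the share of features called higher was 73.5% of all 19572 (82.9% called) and 2.46% (20.6% called). Dim features left out, 6 beta genes were tested, of which 5 passed in odor pools, 3 in vehicle pools and 6 in the average. Of these, Pcdhb4, Pcdhb14, Pcdhb17 and Pcdhb20 met the filter mostly through titled GFP− arrays. The counts under this filter are therefore not a separate check of the direction. Negative-control centring put the median interaction at 0.43 and the median odor effect in titled GFP+ at −0.64 with 11 genes called lower, and turned Pcdhb8 there to −0.06. Receptor centring put that median at 0.16. Leaving out 1 pool gave 4 to 10 genes in odor pools, 1 to 9 in vehicle pools and 15 to 17 in the average, with medians of 0.43 to 0.64, 0.51 to 0.56 and 0.50 to 0.59. The pool as replicate block gave 11, 11 and 19 genes, and the replicate number as a block changed no odor call among the beta genes. The share of all features called is not given here for the pool block, the dim-feature filter or the fits without 1 pool. It is also not given for median centring within odor or vehicle pools. Those counts are therefore not set against it. Of the named genes' values under alternatives, 339 kept direction and side of the threshold, 49 no longer passed, 2 newly passed and 1 changed sign. Where a count moved, the cause was not tested. Background limits most values to differences of array signal, since Pcdhb1 alone was above it on all arrays.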
